A study of Mus musculus with 6 samples.

Results

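The genes described here are Depp1, the 4 FoxO transcription factors measured in the table (Foxo1, Foxo3, Foxo4 and Foxo6) and 5 further FoxO target genes (Sesn3, Irs2, Klf9, Ccng2 and Bcl6), 10 genes of the 17068 in the filtered count table. They were taken by name, and the names were selected on results of the same comparison: Depp1 was one of the genes that passed the threshold between the groups, and the FoxO factors and other targets were listed around it. All 10 were found in the table, so every listed gene is accounted for. Because the Foxp1cKO and control libraries chose the list, the values of the 10 genes are given as a description with their errors and no test is read for them.

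The data are bulk RNA-Seq of lateral cortex at embryonic day 12.5 from 6 female c57/bl6 mouse embryos, 4 controls without Cre and 2 mutants. Controls 1, 2 and 4 carried Foxp1 fl/+ (1 floxed allele) and control 3 carried Foxp1 fl/fl (both alleles floxed), so every control carried at least 1 floxed allele. The 2 mutants carried Foxp1 fl/fl with Emx1Cre and are called Foxp1cKO. Emx1Cre is active in dorsal telencephalic progenitors and the cells derived from them, so blood vessels, microglia, blood cells and ventrally born neurons in the dissected piece are not its targets. No agent was given. The labels do not state litters or any other batch.

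FoxO proteins are forkhead transcription factors that are held in check by insulin and growth factor signalling. When the insulin or IGF receptor is active, PI3K and Akt phosphorylate FoxO proteins, 14-3-3 proteins bind them, and they leave the nucleus. When that signal is low, or under stress, they return to the nucleus and switch on genes for cell cycle arrest, metabolism, autophagy and feedback on insulin signalling. Much of this control acts on the protein, and the RNA level of a FoxO gene does not show whether its protein is in the nucleus. In the brain FoxO factors are known for keeping neural stem cells quiescent, and Foxo6 for its expression in neurons.

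Depp1 (decidual protein induced by progesterone, a FoxO target with roles in oxidative stress and autophagy) was the member that differed most between the groups, at 5.65 times the control level in the Foxp1cKO libraries. Foxo3, Irs2 and Klf9 also lay above all controls in both Foxp1cKO libraries, by 1.43, 1.41 and 2.00 times. Foxo1, Foxo4, Foxo6, Sesn3, Ccng2 and Bcl6 overlapped between the groups. Both Foxp1cKO libraries were above all 4 controls for 4 of the 10 genes and below all controls for 0 of them, against 11.5% and 13.1% of all genes. Depp1 was listed because it passed this contrast, so nothing is read from these shares.

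Sequence of the promoters is shown for the 3 targets whose Foxp1cKO libraries both lay above the controls, since a FoxO protein binds DNA through its forkhead domain. The windows are from RefSeq on GRCm38.p6, read 5′ to 3′ on the strand of the gene, and capitals mark the letters searched for. In Depp1 (chr6:116650477-116650536, plus strand) and in Klf9 (chr19:23141100-23141159, plus strand) the capitals are a forkhead motif, and in Irs2 (chr8:11008933-11008992, minus strand) they are the insulin response letters CAAAACA read on the other strand.
Depp1: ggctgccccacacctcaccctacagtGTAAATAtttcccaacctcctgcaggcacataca
Klf9: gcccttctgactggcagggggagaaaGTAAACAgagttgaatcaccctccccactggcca
Irs2: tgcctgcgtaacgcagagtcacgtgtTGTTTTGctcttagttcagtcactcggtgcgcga

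The forkhead letters searched were GTAAACA, the usual consensus, with its variants GTAAATA as the form in Depp1, then ATAAACA as another and ATAAATA as the last, on either strand, in windows of 300 bases around each start site. Promoter entries were found for 8 of the 10 genes, which gave 9 promoters, since Bcl6 has 2 start sites. Foxo4 and Foxo6 had no entry. The forkhead letters were in 2 of the 9 promoters, beginning 181 bases before the start site of Depp1 and 100 bases before that of Klf9, and 15% of all 32851 promoters held them. CAAAACA was in 2 of the 9 (Irs2 and Ccng2) and in 6.28% of all promoters. The letters ACGTG, the core of the element that hypoxia-inducible factors bind, were in 3 of the 9 (Irs2, Klf9 and Bcl6) and in 19.6% of all promoters. In the Irs2 window above, ACGTG lies next to the capitals without overlapping them. These are matches of letters and show no binding. Foxp1, the targeted gene, also encodes a protein with a forkhead domain required for DNA binding. Which forkhead protein, if any, binds the letters in Depp1 and Klf9 was not tested.

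Library totals ran from 50076008 to 78346979 counts, and 3 counts, taken as the least a library can show, were 0.0381 to 0.0596 CPM (library-scaled counts, edgeR's CPM after TMM normalization). This floor covers counting error only. Foxp1, the targeted gene, was at 59.7, 60.8, 71.2 and 79.1 CPM in controls 1 to 4 and at 83.2 and 76.8 CPM in the libraries labelled Foxp1cKO (log2 fold change 0.24, SE 0.13, edgeR quasi-likelihood test, adjusted p = 0.468). It was therefore not lower in the libraries labelled Foxp1cKO, but the count covers the whole gene and does not separate the floxed exons, and directions below rest on the labels. Summed cortical markers overlapped between the groups, with radial glial genes at 2015 to 2555 CPM in the controls and 2214 to 2308 CPM in Foxp1cKO libraries and cortical neuron genes at 2798 to 5048 and 3628 to 3797 CPM. Pax6, Emx1 and Tbr1, which mark dorsal cortex, were well above the floor in every library. Red cell genes (Alas2 and 4 globin genes) summed to 1287, 994, 1037 and 3283 CPM in controls 1 to 4 and to 3627 and 3877 CPM in Foxp1cKO libraries, with 4 of the 5 above all controls. In bulk tissue, fewer cells of a type and less RNA per cell cannot be told apart.

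Foxo6, the member of the family whose protein stays mostly in the nucleus, had the highest level of the 4 factors. Per length of its exons it reached 22.8 ± 3.67 RPKM in the controls (CPM divided by kilobases of exon, SD, n = 4), above 86.5% of all genes. Foxo4 followed at 9.56 ± 1.57 RPKM, Foxo3 at 5.48 ± 0.522 RPKM and Foxo1, the factor best known for glucose metabolism in liver, at 1.24 ± 0.212 RPKM. The ranges of these 4 levels over the controls did not overlap, so the order of the factors was the same in every control. Among the targets, Ccng2 was highest at 27.4 ± 3.16 RPKM and its range overlapped that of Foxo6. Sesn3 was at 8.16 ± 0.951 RPKM and overlapped Foxo4, and Irs2 at 4.55 ± 1.11 RPKM overlapped Foxo3. Bcl6 (0.932 ± 0.212 RPKM) overlapped both Foxo1 and Depp1 (0.735 ± 0.221 RPKM), and Klf9 was lowest at 0.328 ± 0.0748 RPKM, above 15.7% of all genes.

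Foxo3 (ENSMUSG00000048756.11, chr10:42181841-42276755, minus strand; positions here and for the genes that follow are the whole gene in GENCODE M21 on mm10), the factor most often tied to stress responses and stem cell quiescence, was measured at 37.3, 46.8, 41.0 and 40.7 CPM in controls 1 to 4 and at 56.0 and 62.7 CPM in the Foxp1cKO libraries. Both mutant libraries were above every control. The log2 fold change was 0.52 (SE 0.11), and the range of Foxo3 over the controls was 1.26-fold.

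Foxo6 (ENSMUSG00000052135.8, chr4:120267079-120287349, minus strand) was measured at 72.1, 60.5, 56.6 and 49.1 CPM in the controls and at 34.1 and 58.4 CPM in the Foxp1cKO libraries. Foxp1cKO 1 was below every control, while Foxp1cKO 2 lay among them. The means were 59.6 ± 9.60 CPM (SD, n = 4) and 46.3 ± 17.2 CPM (SD, n = 2), and the log2 fold change of -0.36 (SE 0.23) was -0.82 without Foxp1cKO 2 and -0.029 without Foxp1cKO 1.

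Foxo1 (ENSMUSG00000044167.6, chr3:52268336-52353221, plus strand) was measured at 13.1, 11.0, 8.75 and 10.2 CPM in the controls and at 8.62 and 12.02 CPM in the Foxp1cKO libraries, one of them below the lowest control and the other within their range. Its log2 fold change was -0.061 (SE 0.21), and its sign changed when Foxp1cKO 1 was left out (0.16). The 6 meningeal and mesenchymal markers summed to 269, 73.4, 40.4 and 164 CPM in controls 1 to 4. In Foxp1cKO 1 and 2 these markers summed to 59.8 and 150 CPM, and their part in the Foxo1 levels was not tested. Foxo4 (ENSMUSG00000042903.8, chrX:101254528-101260873, plus strand) was measured at 34.0, 35.0, 25.7 and 38.6 CPM in the controls and at 30.7 and 34.0 CPM in the Foxp1cKO libraries, so both mutants lay within the controls (log2 fold change -0.042, SE 0.16).

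Taken as a sum of RPKM, the 4 factors reached 39.1 ± 3.86 in the controls (SD, n = 4) and 36.0 ± 8.12 in Foxp1cKO (SD, n = 2), and the groups overlapped. Their proportions differed most for Foxo3 and Foxo6. Foxo3 made up 11.2, 15.2, 15.3 and 14.8% of the sum in controls 1 to 4 and 24.5 and 19.8% in Foxp1cKO 1 and 2, with no overlap. A share also depends on the other factors. Foxo3 was at 7.40 and 8.28 RPKM in Foxp1cKO 1 and 2, and Foxo6 at 13.0 and 22.3 RPKM. The higher Foxo3 share of Foxp1cKO 1 thus went with its lower Foxo6 level. Foxo6 made up 63.0, 56.9, 61.1 and 51.6% in the controls and 43.1 and 53.5% in Foxp1cKO, where the second mutant library lay above control 4. For 4 controls and 2 mutants the smallest one-sided p that exact permutation of 1 value allows is 0.0667 (0.133 when doubled), so the shares were not tested. The stacked plot of the 4 factors shows that Foxo6 took the largest share in each of the 6 libraries.

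**Figure D1:**
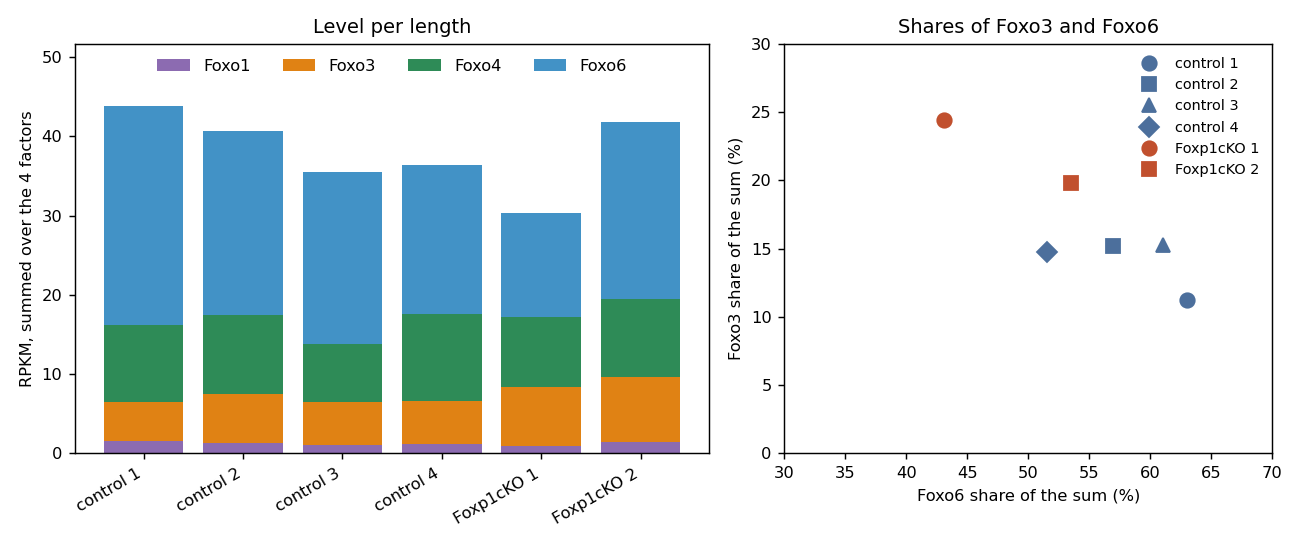
Left, RPKM of Foxo1, Foxo3, Foxo4 and Foxo6 stacked for each of the 6 libraries. Right, the share of Foxo3 in that sum (vertical axis, %) against the share of Foxo6 (horizontal axis, %), 1 point per library. Foxo3 was at 19.8 and 24.5% in Foxp1cKO and at 11.2 to 15.3% in the controls.

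Depp1 (ENSMUSG00000048489.12, chr6:116650609-116652794, plus strand) was measured at 0.872, 0.821, 0.851 and 1.45 CPM in controls 1 to 4 and at 5.52 and 5.79 CPM in Foxp1cKO 1 and 2. These levels come from 54, 51, 62 and 114 counts in the controls and from 278 and 439 counts in Foxp1cKO, well over the floor. Controls 1 to 3 lay close together, control 4 stood above them, and both mutants were far above control 4.
The means were 0.998 ± 0.301 CPM (SD, n = 4) and 5.66 ± 0.186 CPM (SD, n = 2), a log2 fold change of 2.50 (SE 0.27). Against single controls, Foxp1cKO 1 was 6.34, 6.73 and 6.49 times controls 1, 2 and 3 and 3.82 times control 4, and for Foxp1cKO 2 the corresponding ratios were 6.64, 7.05, 6.80 and 4.00. The mutant libraries differed from each other by 1.05-fold. Control 4 was also the control with the most red cell RNA, a sum of 3283 CPM beside 3627 and 3877 CPM in Foxp1cKO 1 and 2. Depp1 is also known from vascular endothelium. The 12 endothelial markers summed to 241, 161, 157 and 193 CPM in controls 1 to 4 and to 215 and 267 CPM in Foxp1cKO, so Foxp1cKO 1 lay within the controls, and 2 of the 12 (Flt1 and Pecam1) were above all controls in both mutants. The 5 mural cell markers summed to 55.9 to 72.1 CPM in the controls and to 88.1 and 91.2 CPM in Foxp1cKO. Of the 5, only 2 (Rgs5 and Cspg4) were above all controls in both mutants. The part of red cell, endothelial and mural RNA in the Depp1 difference was not tested.

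In edgeR's quasi-likelihood test over all 17068 genes, 26 genes (0.152%) passed an adjusted p of 0.05, each of them higher in Foxp1cKO, and of the 10 genes described here Depp1 was the one among them. In DESeq2's Wald test 3.36% of the 15067 genes with an adjusted p passed, and of the 10 genes Depp1 and Foxo3 did. The list was drawn from this contrast, so nothing is read from those counts. The count of 1 also rested on single libraries: it was 0 without control 1, control 2, control 3, Foxp1cKO 1 or Foxp1cKO 2, and 1 without control 4. Over the 10 genes the median log2 fold change was -0.015, with 5 higher and 5 lower, beside -0.0044 over all genes.

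**Figure D2:**
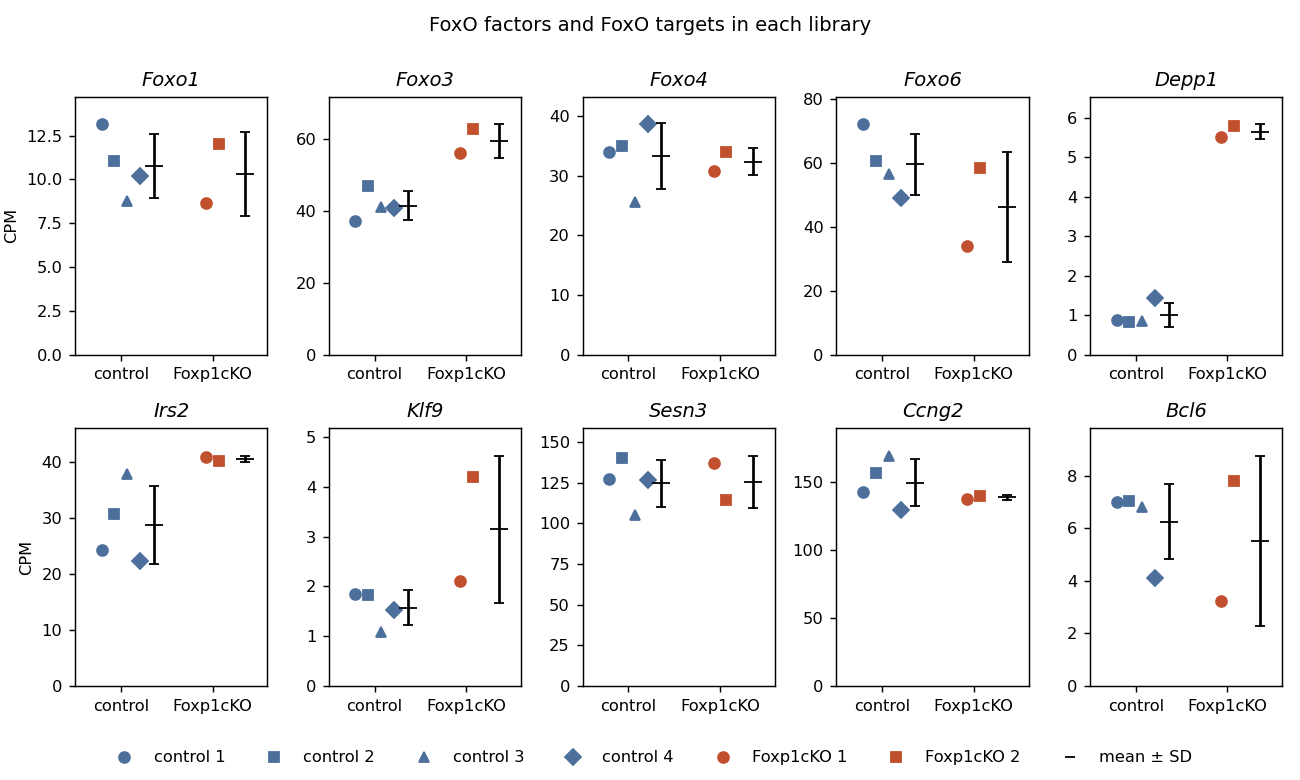
CPM of the 10 genes in each library, 1 panel per gene, with controls in blue, Foxp1cKO in red and the mean ± SD of each group beside its points. Depp1 lay at 0.821 to 1.45 CPM in the controls and at 5.52 and 5.79 CPM in Foxp1cKO, and Foxo3, Irs2 and Klf9 also had both Foxp1cKO points above all controls.

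Irs2 (ENSMUSG00000038894.7, chr8:10984681-11008458, minus strand), the adaptor that carries the signal from insulin and IGF receptors to PI3K and is itself induced by FoxO proteins as feedback, was measured at 24.3, 30.6, 37.8 and 22.3 CPM in controls 1 to 4 and at 40.9 and 40.1 CPM in the Foxp1cKO libraries. The mutants were nearly equal and stood just above control 3, the control with both alleles floxed. The log2 fold change was 0.50 (SE 0.20), and the controls themselves spread 1.70-fold. Control 3 also held the most RNA of ventral telencephalic markers, summed to 824 CPM against 232, 356 and 256 CPM in controls 1, 2 and 4 and 515 and 384 CPM in Foxp1cKO 1 and 2, whose part in the Irs2 levels was not tested.

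Klf9 (ENSMUSG00000033863.1, chr19:23141226-23168134, plus strand), a Krüppel-like factor that also responds to glucocorticoids and thyroid hormone, was measured at 1.86, 1.83, 1.08 and 1.54 CPM in the controls and at 2.11 and 4.19 CPM in the Foxp1cKO libraries. Foxp1cKO 1 was only slightly above control 1, and Foxp1cKO 2 was 1.99 times Foxp1cKO 1. The log2 fold change of 1.00 (SE 0.34) thus rested largely on Foxp1cKO 2: it was 0.40 without that library and 1.41 without Foxp1cKO 1. The difference between the mutant libraries was larger for Klf9 than for 95.1% of all genes on the log2 scale.

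Bcl6 (ENSMUSG00000022508.5, chr16:23965052-23988852, minus strand), a repressor that drives neurogenesis in cortical progenitors, was measured at 7.01, 7.05, 6.81 and 4.13 CPM in the controls and at 3.22 and 7.80 CPM in the Foxp1cKO libraries. The mutants stood on either side of the whole control range, 2.42-fold apart, a wider gap than in 97.4% of all genes. The log2 fold change of -0.17 (SE 0.38) changed sign when Foxp1cKO 1 was left out (0.32) and was -0.97 without Foxp1cKO 2. The sum over the 7 cortical neuron markers was 3906, 4717, 5048 and 2798 CPM in the controls and 3628 and 3797 CPM in Foxp1cKO, lowest in control 4 and next lowest in Foxp1cKO 1. The part of neuronal RNA in the levels of Bcl6 was not tested.

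Sesn3 (ENSMUSG00000032009.8, chr9:14275067-14333101, plus strand), a sestrin that restrains mTORC1 and is a classical FoxO target, was measured at 127, 140, 105 and 126 CPM in the controls and at 137 and 114 CPM in the Foxp1cKO libraries, all within the control range (log2 fold change 0.011, SE 0.13). Ccng2 (ENSMUSG00000029385.14, chr5:93267257-93276231, plus strand), an atypical cyclin that goes with cell cycle exit, was measured at 142.5, 156.5, 169 and 129 CPM in the controls and at 137.5 and 139.8 CPM in the Foxp1cKO libraries, again within that range (log2 fold change -0.11, SE 0.11). The 2 targets with the highest RPKM in the controls thus had the smallest fold changes of the 6 targets.

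Over the 6 libraries, the highest correlation of log2 CPM between 2 of the 10 genes was that of Foxo6 with Bcl6 (r = 0.893). Depp1 went with Foxo3 (r = 0.882) and with Klf9 (r = 0.745), Foxo3 with Klf9 (r = 0.791) and Irs2 (r = 0.751), and Foxo1 with Foxo6 (r = 0.767). Foxo4 and Ccng2 moved oppositely (r = -0.736). These are descriptions over 6 libraries that share the 2 groups and the cell mixtures given above, so a difference between the groups enters each r.

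Among 2173 genes with a mean of at least 1 CPM and a range of at least 1 in log2 CPM, those most like Depp1 were led by Aldoa (r = 0.998), a glycolytic enzyme, at 188, 186, 180 and 242 CPM in controls 1 to 4 and 575 and 623 CPM in Foxp1cKO 1 and 2. The next 9 had r from 0.988 to 0.996. They were Gt(ROSA)26Sor, Prelid2, F630040K05Rik, Pfkl (a phosphofructokinase of glycolysis), Bnip3 (a mitophagy receptor), Tmem255a, Pdk1 (the kinase that limits pyruvate entry into mitochondria), Smtnl2 and Slc16a3 (the lactate exporter MCT4). In each of these 10 genes control 4 was the highest control and both Foxp1cKO libraries were above it, as in Depp1. They were picked by correlation with Depp1 over the same 6 libraries, so this shared order largely follows from the choice. Of the 10, 6 were among the 26 genes past the threshold, and the group difference enters this likeness too.

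**Figure D3:**
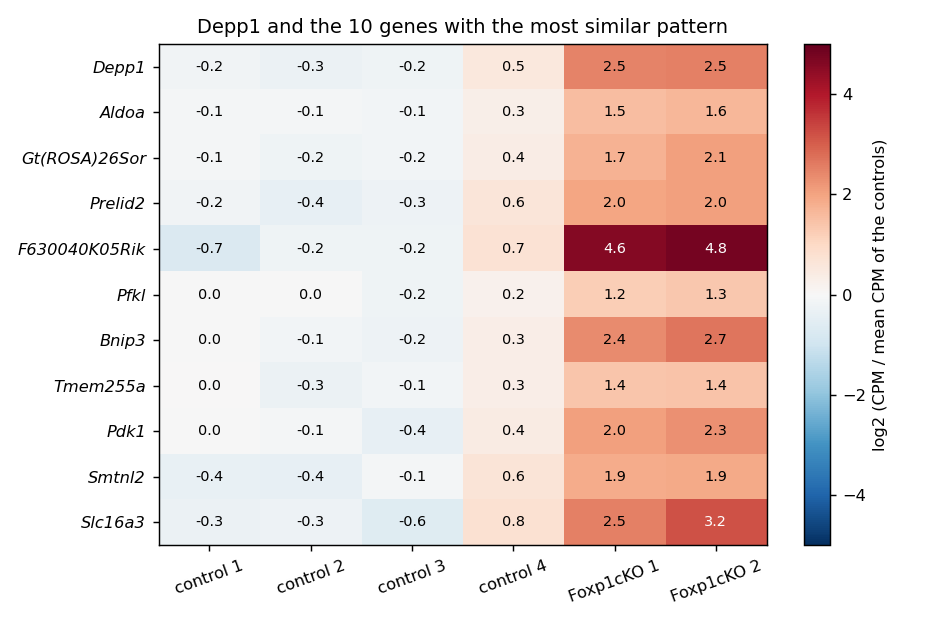
Heat map of log2 of CPM over the mean CPM of the controls, for Depp1 and the 10 genes with the most similar pattern (rows) in the 6 libraries (columns). Control 4 was the highest control in each row and both Foxp1cKO columns were higher still, with Depp1 at 2.5 in both. The 10 genes were picked by their correlation with Depp1 over these libraries.

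For Foxo6 the genes with the most similar pattern were Slc35f2 (r = 0.979), Apcdd1, an inhibitor of Wnt signalling (r = 0.978), Ttc39b (r = 0.971), Slco2a1, a prostaglandin transporter (r = 0.970), and Cxcl12, a chemokine that guides interneurons and progenitors (r = 0.960). For Foxo1 they were Bcan, a brain chondroitin sulphate proteoglycan (r = 0.990), Fam78a (r = 0.966), Apod (r = 0.957), Wfikkn2 (r = 0.948) and Ndrg2 (r = 0.943). None of these 10 passed the threshold between the groups.

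The other genes of the pathway were taken as 2 lists, chosen with earlier results of these data known. Their counts and shares are therefore given as a description. Adjusted p-values of single genes come from the tests over all genes of the table. Of 42 listed regulators of FoxO (receptors, PI3K, Akt and the enzymes and binding proteins that modify FoxO proteins) 41 had a row in the table. In the mutants 19 of them were higher and 22 lower, and their median log2 fold change was -0.021 beside -0.0044 over all genes. In edgeR's quasi-likelihood test 0 of the 41 passed, beside 0.152% of all genes. An unadjusted p under 0.05 was found for 6 (14.6%, 4 higher and 2 lower), close to the 13.0% of all genes (1115 higher and 1109 lower). DESeq2 called 1 of the 41, the IGF receptor Igf1r, beside 3.36% of all genes with a DESeq2 adjusted p. Both Foxp1cKO libraries were above all controls in 6 of the 41 (14.6%, beside 11.5% of all genes) and below all controls in 2 (4.88%, beside 13.1%).

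At the receptor, Igf1r was measured at 160, 158, 171 and 155 CPM in the controls and at 210 and 213 CPM in the Foxp1cKO libraries, well apart (log2 fold change 0.40, SE 0.070, edgeR adjusted p = 0.175, DESeq2 adjusted p = 0.000593). Irs1, the sister adaptor of Irs2, was at 88.7, 82.3, 75.1 and 110 CPM in the controls and at 134 and 109 CPM in Foxp1cKO, where the second mutant was level with control 4 (log2 fold change 0.45, SE 0.16, edgeR adjusted p = 0.332, and 0.29 on the log2 scale without Foxp1cKO 1). Akt1, the kinase that excludes FoxO proteins from the nucleus, was at 304, 311, 278 and 283 CPM in the controls and at 234 and 258 CPM in Foxp1cKO, both below all controls (log2 fold change -0.26, SE 0.085, edgeR adjusted p = 0.31).
Of the remaining largest differences in this list, Inpp4b, a phosphatase acting on PI3K products, had a log2 fold change of 0.79 (SE 0.39, edgeR adjusted p = 0.439) that was 0.065 without Foxp1cKO 1 and 1.26 without Foxp1cKO 2, Pik3r3, a regulatory subunit of PI3K, -0.45 (SE 0.19, edgeR adjusted p = 0.384), and Ywhag, a 14-3-3 protein, -0.24 (SE 0.16, edgeR adjusted p = 0.547).

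Of 57 further reported FoxO targets 50 had a row in the table. In the mutants 29 of them were higher and 21 lower, and their median log2 fold change was 0.028. In edgeR's test 1 of the 50 rose and 0 fell, beside 0.152% of all genes, and 12 (24%) had an unadjusted p under 0.05 (10 higher and 2 lower), beside 13.0% of all genes. Both Foxp1cKO libraries were above all controls in 11 of the 50 (22%, beside 11.5% of all genes) and below all controls in 4 (8%, beside 13.1%).

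The target that rose was Bnip3, at 23.5, 21.8, 20.2 and 29.9 CPM in the controls and 123.5 and 151 CPM in the Foxp1cKO libraries, with control 4 again the highest control (log2 fold change 2.53, SE 0.16, edgeR adjusted p = 0.00843). Bnip3 is induced by hypoxia-inducible factors as well as by FoxO proteins. Its call was lost without control 2 (adjusted p = 0.066) and without Foxp1cKO 2 (adjusted p = 0.0579), and over the alternatives its adjusted p ran from 1.38e-38 to 0.0709, the highest with a replicate block. DESeq2 called 4 of the 50 (Bnip3, Bnip3l, Cdkn1a and Txnip), beside 3.36% of all genes with a DESeq2 adjusted p.

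Txnip, an inhibitor of thioredoxin and of glucose uptake, had a difference in the opposite direction that was nearly as large. It was measured at 88.4, 73.9, 58.8 and 40.4 CPM in the controls and at 11.96 and 11.97 CPM in the Foxp1cKO libraries, so the groups were far apart while the controls spread widely, with control 4 lowest (log2 fold change -2.45, SE 0.32, edgeR adjusted p = 0.0647, DESeq2 adjusted p = 4.58e-14). The edgeR adjusted p was 0.00521 without control 4 and 0.0815 to 0.451 without any other single library. Cdkn1a, the cell cycle inhibitor p21, was at 4.67, 5.92, 5.17 and 6.07 CPM in the controls and at 11.1 and 11.2 CPM in Foxp1cKO, again without overlap (log2 fold change 1.03, SE 0.16, edgeR adjusted p = 0.0919, DESeq2 adjusted p = 1.09e-07).
Erbb3, a receptor tyrosine kinase, had a log2 fold change of 1.43 (SE 0.60, edgeR adjusted p = 0.38) at under 1 CPM in every library, and 0.81 without Foxp1cKO 2. The other 2 lower targets named by size were Lpl, lipoprotein lipase, at -0.36 (SE 0.20, edgeR adjusted p = 0.484) and Gadd45g, a growth arrest gene, at -0.32 (SE 0.14, edgeR adjusted p = 0.407). The plot of all fold changes places Depp1, Bnip3 and Txnip apart from the remaining genes of the 3 lists.

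**Figure D4:**
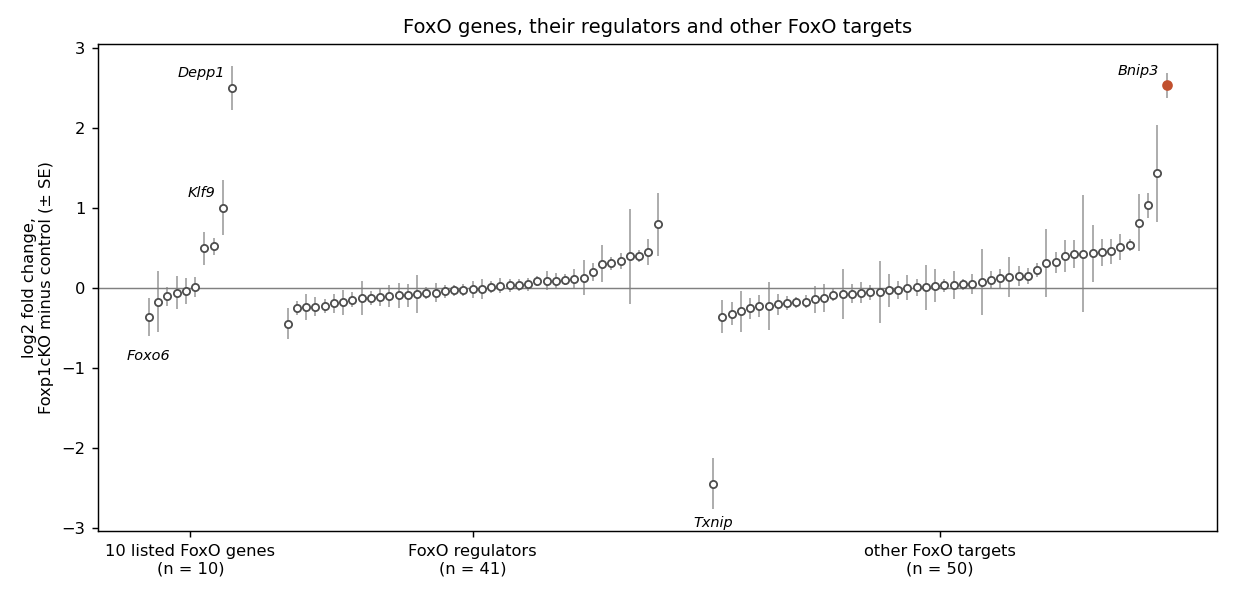
Log2 fold change, Foxp1cKO minus control, with its SE, for the 10 FoxO genes, 41 FoxO regulators and 50 other FoxO targets, each list ordered by size (horizontal axis). The filled point, Bnip3, passed the edgeR threshold. The 10 FoxO genes are drawn open because no test is read for them. Depp1 (2.50), Bnip3 (2.53) and Txnip (-2.45) lay farthest from 0.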

How the data were processed

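Stranded libraries from the 6 embryos were aligned by the authors to mm10 with STAR and counted on genes with HTSeq 0.9.1 in union mode, and genes with low counts were removed. The deposited counts are whole, unnormalized reads per gene. The authors also deposited variance-stabilized values of the same table, on a log2 scale. The authors held litter in their model, but the labels give none.

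Counts were analysed in R 4.3.3 with edgeR 4.0.16: TMM scaling, a model of group alone, the quasi-likelihood test over all 17068 genes, Benjamini-Hochberg adjustment and a threshold of 0.05. CPM, RPKM and log2 CPM (prior count 2) were computed from the counts. Of the identifiers, 17047 were found in GENCODE M21 by their unversioned form and 21 were not; RPKM used the union of annotated exons. Totals were 50076008 to 78346979 per library, and intervals and floors cover counting error only. Samples were grouped by their labels, which do not say that the embryos came from separate litters. The p-values thus set the group difference against the spread between these samples, with litter left out of the model.

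The 10 genes and the wider lists were chosen with earlier results of these data known. Of the wider lists, genes past the threshold and the 3 largest changes in each direction with a mean of at least 10 counts were named. Genes like Depp1 (10), Foxo6 and Foxo1 (5 each) were named by Pearson correlation of log2 CPM over the 6 libraries. Alternatives were DESeq2 1.42.0, limma 3.58.1 with a trend on the deposited values, DESeq2's size factors, library totals, filterByExpr, leaving out each library, and the replicate number as a block. The test was tried on simulated data. Marker genes and listed genes without a row in the table, among them Sox2 and Tubb3, were not analysed here, and 1 listed marker is not reported here.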

Additional observations from a re-analysis of the deposited data

Results flagged for a closer look

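Control 4 stood apart from the other controls in 3 of the 32 values examined (23 genes and 9 marker sums, each over the 4 controls), where chance sets a sample apart about 1 time in 20. Depp1 was highest in control 4, at 1.45 CPM with the nearest control at 0.872 CPM. Bcl6 was lowest in control 4, at 4.13 CPM with the nearest control at 6.81 CPM. The red cell marker sum was highest in control 4, at 3283 CPM with the nearest control at 1287 CPM. Without control 4, the log2 fold change of each of these 2 genes kept its sign.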

How the results depend on the processing

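With 4 libraries against 2, counts of calls moved with the test and with single libraries. The 26 calls over the whole table became 507 in DESeq2 (310 higher), and 2 to 96 when a library was left out (6, 2 and 96 without control 1, 2 and 4, and 9 and 3 without Foxp1cKO 1 and 2). Among the 10 FoxO genes the 1 call became 2 in DESeq2 and 0 to 1 with a library left out. Among the FoxO regulators 0 calls became 1 in DESeq2. Among the other FoxO targets 1 call became 4 in DESeq2 and 0 to 3 with a library left out (0 without control 2 or Foxp1cKO 2, 3 without control 4). The cause was not tested. Replicate numbers 1 and 2 occur in both groups, but the embryos differ and the labels do not say that equal numbers are paired. Same-numbered deviations from the group means correlated at -0.198 and 0.0157. With 2 mutants the crossed pairs give the same values with the sign reversed, so these correlations cannot show or exclude shared litters. Numbers 3 and 4 occur in the controls alone. A block by number thus rests the group difference on controls 1 and 2 and the 2 mutants. With a replicate block 0 genes were called over the whole table (3027 at an unadjusted p under 0.05), 0 of the 10 FoxO genes and 0 of the other targets. With the numbers crossed, an alternative chosen after seeing the data, the calls were 1301, 4, 7 and 8 for the whole table, the 10 FoxO genes, the regulators and the other targets.

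Over the 13 alternatives the log2 fold changes of Depp1 (1.27 to 2.74), Foxo3 (0.42 to 0.60), Foxo6, Irs2 (0.39 to 0.64), Klf9 and Ccng2 kept their sign, and those of Foxo1, Foxo4, Sesn3 and Bcl6 changed it in 2, 2, 4 and 1 alternatives. The lowest value of Depp1 is on the variance-stabilized scale, which compresses low counts. Depp1 was chosen on this contrast, so its adjusted p over the alternatives is not read. With a prior count of 0.5 the genes most like Depp1, Foxo6 and Foxo1 were the same ones.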
